A study of Danio rerio with 24 samples.

Results

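The 10 genes described here are 8 genes of heme synthesis (alas1, alas2, alad, uros, urod, cpox, ppox and fech) and 2 genes of the red cell membrane (slc4a1a and epb41b). They were listed by symbol, with no threshold on measured values but with earlier results of these data known, and all 10 were found among the 26347 genes of the count table. All 10 also passed the filter on low counts that left 20907 genes for testing. The RNA came from whole zebrafish embryos of WT and of the mutant line slincRosu3, which carries a CRISPR-Cas9 mutation in slincR, a long noncoding RNA gene next to sox9b. Embryos were exposed from 6 hours post fertilization (hpf) to 1 ng/mL TCDD (2,3,7,8-tetrachlorodibenzo-p-dioxin, a strong agonist of the aryl hydrocarbon receptor) or kept as controls, and all were collected at 48 hpf. The 16 libraries form 4 groups of 4: WT TCDD, WT control, slincRosu3 TCDD and slincRosu3 control. The title of a table the authors deposited names DMSO, the usual solvent for TCDD, for WT. How many embryos each library pools, and whether the replicates are separate clutches, is not stated in the labels, so p-values measure only the spread between these libraries. Another 8 samples, of a line named BigD, were not analysed here.

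Heme is made in a chain of enzymes that starts and ends in the mitochondrion. The first and rate-limiting step, the joining of glycine and succinyl-CoA, is carried out by a 5-aminolevulinate synthase, of which vertebrates have a pair: ALAS1, present in most cells and in mammalian liver raised by drugs that induce heme-containing P450 enzymes and repressed by heme, and ALAS2, made in developing red cells and controlled by iron and erythroid transcription factors. Several of these genes are known from zebrafish anemia or porphyria mutants: alas2 (sauternes), urod (yquem), ppox (montalcino), fech (dracula), slc4a1a (retsina) and epb41b (merlot and chablis). TCDD strongly induces P450 genes of family 1, which raises the question whether the general and the erythroid synthase gene part under that induction.

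The P450 response was large in both lines, and none of the 10 genes changed past the threshold. The gene cyp1a, the main P450 target of the aryl hydrocarbon receptor, averaged 1078 ± 160 CPM (read counts relative to the library total, scaled between libraries by TMM) in WT TCDD embryos and 3.59 ± 1.02 CPM in WT control embryos (SD, n = 4 each). In the mutant it averaged 1756 ± 124 CPM in slincRosu3 TCDD and 4.32 ± 0.702 CPM in slincRosu3 control embryos. The increase was 302-fold in WT and 407-fold in slincRosu3 (adjusted p = 2.83e-14 and 1.38e-14, edgeR quasi-likelihood F test with Benjamini-Hochberg adjustment over all genes). Of 81 measured genes with a P450 (cyp) symbol, 67 were tested. In each line 4 of these were called higher with TCDD (cyp1a, cyp1b1, cyp1c1 and cyp1c2) and 0 lower. In WT the increase was 4.02-fold for cyp1b1, 40.7-fold for cyp1c1 and 28.2-fold for cyp1c2. In slincRosu3 it was 7.5-fold, 39.7-fold and 23.8-fold for the same genes. Summed over all 81 genes, the P450 level was 1915 to 2315 CPM in WT TCDD against 519 to 571 CPM in WT control libraries, and 2869 to 3224 CPM in slincRosu3 TCDD against 461 to 520 CPM in slincRosu3 control libraries.

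With TCDD, 0 of the 10 genes were called in WT, where 0.325% of all tested genes were called. TCDD and control libraries did not overlap for 0 of the 10 genes in WT (3.05% of all genes) and for 0 of the 10 in slincRosu3 (4.72% of all genes). In slincRosu3 0 of 10 were called against 0.383% of all genes, and for the effect averaged over both lines 0 of 10 against 0.804%. At an unadjusted p under 0.05, edgeR counted 0 of the 10 genes in WT (1676 of all 20907), 1 in slincRosu3 (fech, 1016 of all) and 0 in the average (1614 of all). DESeq2 also called 0 of the 10 in each of these comparisons. In simulated data for the WT comparison, 95 of 100 genes changed 3-fold were called but only 31 of 99 changed 1.5-fold, so changes of the smaller size could be missed for single genes. The simulation drew each gene independently, without deviations that genes share within a library, and pooled genes of all levels. It therefore does not give the share called for genes of low count such as fech.

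**Figure D1:**
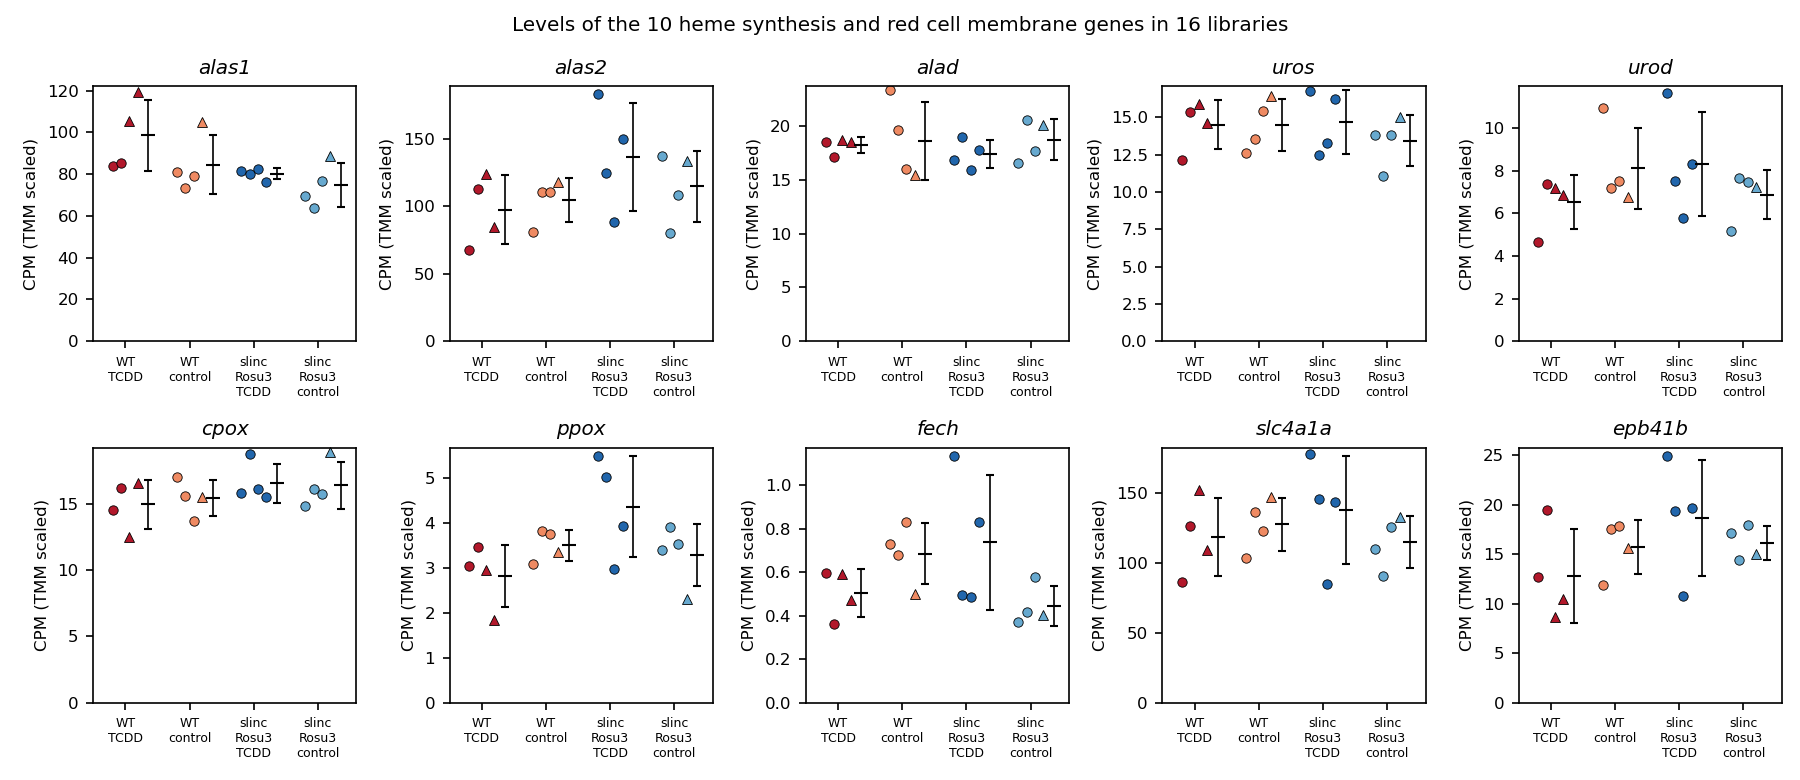
Level of each of the 10 genes (CPM, TMM scaled, axes from 0) in each of the 16 libraries, by group, with TCDD left of its control; bars give mean and SD of 4 libraries, and triangles mark the 4 libraries that stand apart on the first principal component of all genes. TCDD and control libraries overlap for all 10 genes in both lines, and in WT TCDD the alas1 values are 84.0 to 119 CPM.

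A set of 4 libraries stood apart from the rest on the first principal component, which held 29.8% of the variance of log2 CPM: WT TCDD replicates 3 and 4, WT control replicate 4 and slincRosu3 control replicate 4. None of the 4 slincRosu3 TCDD libraries is among them. Total counts per library ran from 17275522 to 20100736. For several results the value without these 4 libraries is given as well.

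The general synthase gene alas1 (ENSDARG00000021059) had 84.0, 85.6, 105 and 119 CPM in WT TCDD replicates 1 to 4, against 80.9, 73.3, 79.4 and 105 CPM in WT control replicates 1 to 4. In slincRosu3 it had 81.6, 80.0, 82.4 and 76.5 CPM with TCDD and 69.5, 64.1, 76.7 and 88.6 CPM in control embryos. The groups overlapped in both lines, and in WT TCDD, WT control and slincRosu3 control the highest alas1 value was in a library that stands apart. The log2 fold change of alas1 was 0.22 ± 0.13 (SE) in WT, 0.10 ± 0.13 in slincRosu3 and 0.16 ± 0.09 averaged over both lines (edgeR adjusted p = 0.712, 0.999 and 0.771). The 95% interval of the averaged effect ran from 0.976-fold to 1.28-fold, and that of the WT effect from 0.962-fold to 1.41-fold. Without the 4 libraries that stand apart, the WT log2 fold change of alas1 was 0.13. Single libraries also moved it: it was 0.34 without WT control replicate 4 and 0.12 without WT TCDD replicate 4.

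The erythroid synthase gene alas2 (ENSDARG00000038643) had 67.8, 112, 124 and 84.8 CPM in WT TCDD replicates 1 to 4, against 80.9, 110, 110 and 118 CPM in WT control replicates 1 to 4. In slincRosu3 it had 183, 124, 88.2 and 149 CPM with TCDD and 137, 80.2, 108 and 134 CPM in control embryos. The TCDD and control libraries overlapped in both lines, and slincRosu3 TCDD, whose replicate 1 held the highest level of all 16 libraries, spread most. The log2 fold change of alas2 was -0.11 ± 0.22 in WT, 0.25 ± 0.22 in slincRosu3 and 0.07 ± 0.16 in the average (edgeR adjusted p = 0.958, 0.999 and 0.981). The slincRosu3 value of alas2 rested on single libraries, at 0.07 without slincRosu3 TCDD replicate 1, 0.41 without slincRosu3 TCDD replicate 3 and 0.11 without slincRosu3 control replicate 2. Its 95% interval in the average ran from 0.834-fold to 1.32-fold. In whole embryos a change in the number of red cells and a change in RNA per red cell cannot be told apart, for this gene and for the other erythroid genes below.

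**Figure D2:**
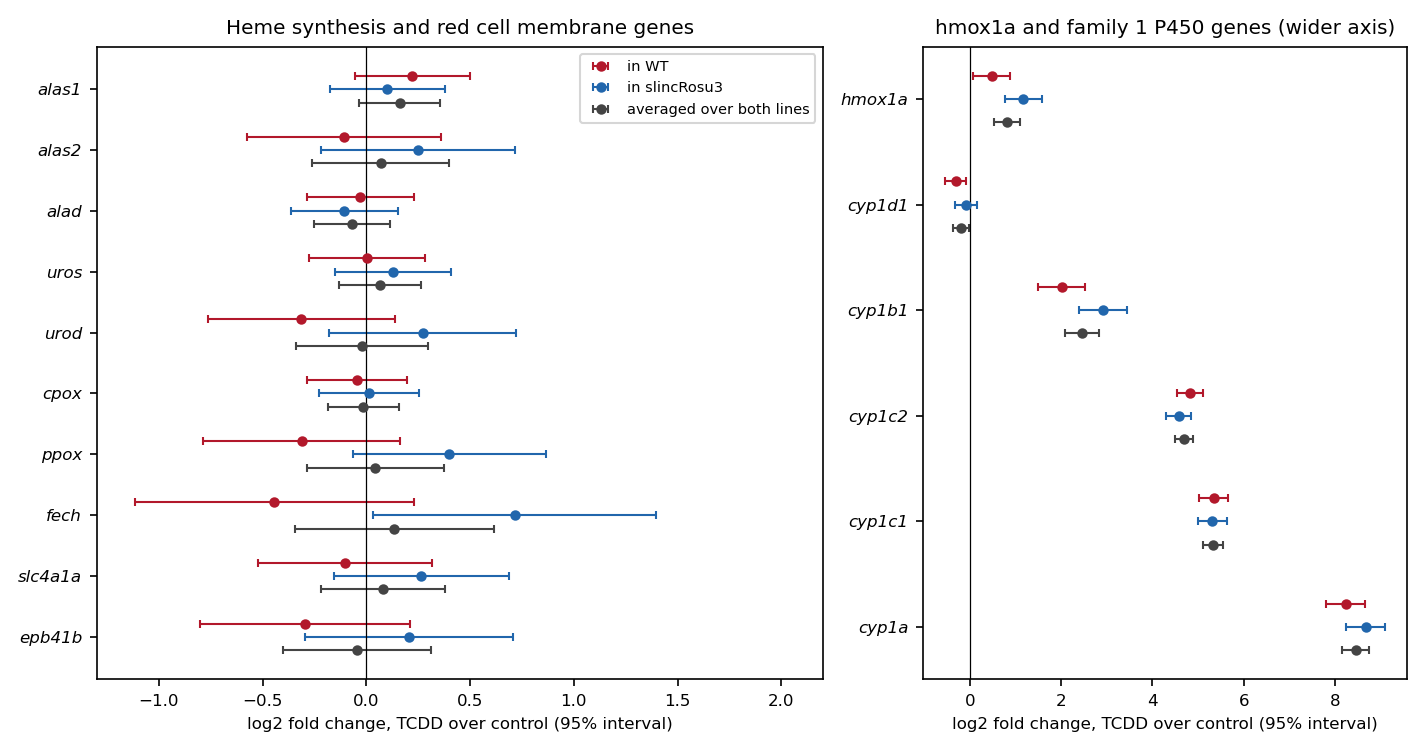
Log2 fold change with TCDD over control and its 95% interval (edgeR), in WT, in slincRosu3 and averaged over both lines, for the 10 genes on the left and for hmox1a and the 5 family 1 P450 genes on the right, on a wider axis. Of the 10 genes, fech in slincRosu3 is the one whose interval lies off 0 (0.03 to 1.40), and it failed the adjustment, while cyp1a lies above 8 in both lines.

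The ratio of alas2 to alas1 counts within a library does not depend on scaling between libraries. Because the transcripts differ in length, the ratio compares libraries and does not say which gene is the more abundant. The ratio was 0.807, 1.31, 1.18 and 0.709 in WT TCDD replicates 1 to 4, against 1.00, 1.51, 1.39 and 1.12 in WT control replicates 1 to 4. In slincRosu3 it was 2.24, 1.55, 1.07 and 1.95 with TCDD and 1.97, 1.25, 1.41 and 1.51 in control embryos. Treated and control libraries overlapped in both lines.

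On the log2 scale the ratio differed by -0.35 between WT TCDD (mean -0.04 ± 0.43, SD, n = 4) and WT control (0.31 ± 0.27), with p = 0.229 by an exact two-sided permutation test and 0.381 after Benjamini-Hochberg adjustment over 5 comparisons. Without the 4 libraries that stand apart this difference was -0.31 (exact permutation p = 0.5). That leaves WT TCDD replicates 1 and 2 against WT control replicates 1 to 3, too few relabellings for p to reach 0.05. Between slincRosu3 TCDD (0.72 ± 0.47) and slincRosu3 control (0.60 ± 0.28) the ratio differed by 0.12 (exact p = 0.686, adjusted 0.686). This difference turned to -0.03 without slincRosu3 TCDD replicate 1. Averaged over both lines the difference was -0.12 (exact permutation p = 0.54 over 4900 relabellings, adjusted 0.674). The smallest p that 4 against 4 libraries allow is 0.0286, before adjustment. After adjustment over 5 comparisons, 1 such comparison alone could not fall below 0.05, however far apart its groups lay. The averaged comparison allows a smallest p of 0.000408. A parting of the 2 synthase genes under P450 induction was not detected at this replicate number. In WT the difference stood at a size that the spread of 4 libraries could not separate from 0.

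**Figure D3:**
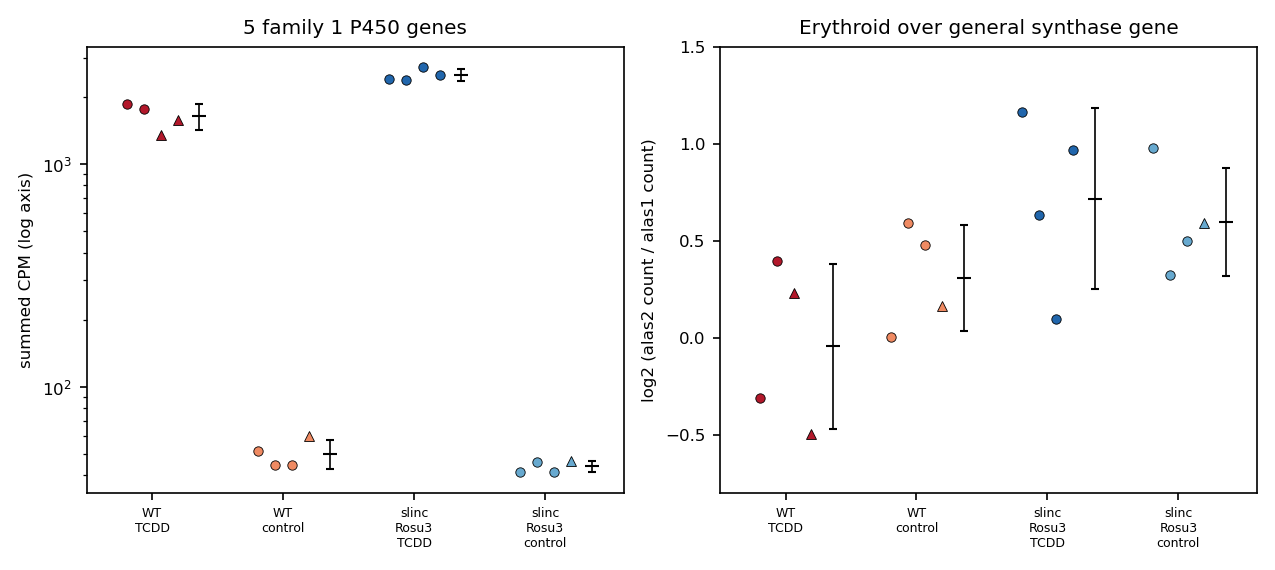
Summed CPM of the 5 family 1 P450 genes (left, log axis) and log2 of the alas2 count over the alas1 count (right) in each library, by group, with mean and SD of 4 libraries; triangles mark the libraries that stand apart. The P450 sum is 1352 to 1853 CPM in WT TCDD against 44.4 to 60.1 CPM in WT control libraries, with no overlap, while the ratios of treated and control libraries overlap in both lines.

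The 6 genes of the later steps of heme synthesis lay close to their controls or were too variable to call. The second step is carried out by the product of alad, which joins 2 molecules of aminolevulinate, and alad averaged 18.2 ± 0.749 CPM in WT TCDD against 18.6 ± 3.645 CPM in WT control embryos, and 17.4 ± 1.31 CPM in slincRosu3 TCDD against 18.8 ± 1.90 CPM in slincRosu3 control. The log2 fold changes were -0.03 ± 0.12 and -0.11 ± 0.12 in WT and slincRosu3 (edgeR adjusted p = 0.981 and 0.999). For uros, whose enzyme closes the tetrapyrrole ring, the means lay between 13.4 and 14.7 CPM in all 4 groups, with log2 fold changes of 0.002 in WT and 0.13 in slincRosu3. For cpox, whose enzyme acts between those of urod and ppox, the means lay between 15.0 and 16.6 CPM, with log2 fold changes of -0.05 and 0.01. The intervals of the averaged effect were narrow for these genes, 0.841-fold to 1.08-fold for alad, 0.912-fold to 1.2-fold for uros and 0.878-fold to 1.11-fold for cpox.

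The other steps varied more. For urod, whose enzyme removes carboxyl groups from uroporphyrinogen, the level was 4.65 to 7.40 CPM in WT TCDD against 6.78 to 10.9 CPM in WT control embryos, and 5.80 to 11.6 CPM in slincRosu3 TCDD against 5.16 to 7.66 CPM in slincRosu3 control. The log2 fold change was -0.31 ± 0.21 in WT and 0.27 ± 0.21 in slincRosu3 (edgeR adjusted p = 0.773 and 0.999). For ppox, whose enzyme oxidises protoporphyrinogen, the values were 3.03, 3.47, 2.95 and 1.84 CPM in WT TCDD against 3.09, 3.82, 3.75 and 3.36 CPM in WT control replicates 1 to 4. They were 5.49, 5.01, 2.98 and 3.93 CPM in slincRosu3 TCDD against 3.40, 3.91, 3.53 and 2.31 CPM in slincRosu3 control. The groups of ppox overlapped in both lines, and its log2 fold change was -0.31 ± 0.22 in WT and 0.40 ± 0.22 in slincRosu3 (edgeR adjusted p = 0.781 and 0.999). Without the 4 libraries that stand apart these ppox values were -0.12 and 0.26, and that of urod in WT was -0.50.

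The last enzyme, ferrochelatase, places iron in the ring. Its gene fech was counted 7 to 19 times per library, so its level rests on few reads. In WT TCDD replicates 1 to 4 it had 0.595, 0.362, 0.591 and 0.472 CPM, against 0.729, 0.680, 0.832 and 0.498 CPM in WT control embryos, and it had 1.13, 0.496, 0.488 and 0.831 CPM in slincRosu3 TCDD against 0.372, 0.417, 0.579 and 0.405 CPM in slincRosu3 control. Counting alone gives a coefficient of variation of 27.7% to 34.8% at these counts, against 20.4% to 41.9% between the libraries of a group. The log2 fold change was -0.44 ± 0.32 in WT and 0.71 ± 0.32 in slincRosu3 (unadjusted p = 0.0412, edgeR adjusted p = 0.982 for slincRosu3).

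The 2 membrane genes did not pass the test in either line. The gene slc4a1a encodes the anion exchanger band 3, the main membrane protein of red cells, and had 86.6, 127, 152 and 109 CPM in WT TCDD against 104, 136, 123 and 148 CPM in WT control replicates 1 to 4. In slincRosu3 it had 178, 146, 85.3 and 144 CPM with TCDD and 110, 91.2, 126 and 133 CPM in control embryos. The slincRosu3 TCDD libraries held both the highest and the lowest slc4a1a value of all 16. The log2 fold change was -0.10 ± 0.20 in WT and 0.27 ± 0.20 in slincRosu3 (edgeR adjusted p = 0.952 and 0.999).

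The gene epb41b encodes protein 4.1, which ties the spectrin skeleton to the membrane, and had 12.7, 19.5, 8.65 and 10.45 CPM in WT TCDD against 11.9, 17.6, 17.9 and 15.6 CPM in WT control. In slincRosu3 it had 24.9, 19.3, 10.8 and 19.7 CPM with TCDD and 17.2, 14.4, 18.0 and 15.0 CPM in control embryos. The 2 lowest WT TCDD values are those of the 2 libraries that stand apart, and without the 4 such libraries the WT log2 fold change of -0.30 ± 0.24 turned to 0.03. In slincRosu3 it was 0.21 ± 0.24 (edgeR adjusted p = 0.812 in WT and 0.999 in slincRosu3).

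As a group, 8 of the 10 genes had a negative log2 fold change with TCDD in WT, with a median of -0.11 against 0.007 over all tested genes. In slincRosu3 9 of the 10 were positive, with a median of 0.23 against -0.006. These are directions of effects that did not pass the test. Single libraries moved the medians in either direction. Without WT TCDD replicate 1 the WT count was 6 negative of 10 with a median of -0.04. Without WT TCDD replicate 3 it was 8 negative of 10 with a median of -0.20. Without slincRosu3 TCDD replicate 1 the slincRosu3 median was 0.07, while the count stayed at 9 positive of 10. Without slincRosu3 TCDD replicate 3 the slincRosu3 median was 0.40. With slincRosu3 TCDD replicate 1 left out, the log2 fold change in slincRosu3 was 0.07 for urod, 0.44 for fech, 0.12 for slc4a1a and 0.04 for epb41b. The erythroid markers went the same way. The heart muscle markers did so in WT and were nearly evenly split in slincRosu3. Of 19 tested erythroid markers 17 were negative in WT (median -0.13) and 13 positive in slincRosu3 (median 0.10). Of 7 heart muscle markers 7 were negative in WT (median -0.25) and 4 positive in slincRosu3 (median 0.11). The other lists are given by positive and negative genes in WT and then in slincRosu3. Genes listed for the red cell membrane and skeleton were 10 and 9, then 9 and 10. Heme and iron genes, of which hmbsb and tfr1a are also among the tested erythroid markers, were 20 and 23, then 21 and 22. Macrophage and neutrophil markers were 3 and 6, then 3 and 6. Blood vessel markers were 5 and 3, then 4 and 4. Liver markers were 7 and 6, then 9 and 4. None of the erythroid and heart muscle markers was called by edgeR with TCDD in either line, and their part in the values of the 10 genes was not tested. Over all genes the share called was 0.325% in WT and 0.383% in slincRosu3.

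The difference between the TCDD effects of the 2 lines, tested as an interaction, was called for 0 of the 10 genes and for 0% of all genes. At an unadjusted p under 0.05 edgeR counted fech and ppox among the 10 (899 of all genes), and DESeq2 called 0 of the 10. The difference was 1.16 ± 0.45 on the log2 scale for fech (unadjusted p = 0.0206) and 0.71 ± 0.31 for ppox (unadjusted p = 0.0369), each with an adjusted p of 0.996. The median difference over the 10 genes was 0.36, against -0.005 over all genes. This median was 0.20 without slincRosu3 TCDD replicate 1 and 0.53 without slincRosu3 TCDD replicate 3. Without the 4 libraries that stand apart it was 0.29, with 10 genes positive and 0 negative, and the difference was 0.39 for ppox. A difference of TCDD effects was therefore not shown for any of the 10 genes. The opposite medians of the 2 lines were not tested against each other.

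Between the lines under TCDD, slincRosu3 against WT, 0 of the 10 genes were called where 1.86% of all genes were. Without TCDD it was 0 of 10 against 1.54%. At an unadjusted p under 0.05 edgeR counted 4 of the 10 with TCDD, ppox, alas2 and epb41b higher in slincRosu3 and alas1 lower (2999 of all genes), and 0 of the 10 without TCDD (2307 of all genes). Without TCDD the groups overlapped for all 10 genes, where 6.27% of all genes did not overlap. DESeq2 called 0 of the 10 in both. These comparisons share libraries with the TCDD comparisons above. The summed level of the 20 erythroid markers described below overlapped between the lines, at 2426 to 4134 CPM in slincRosu3 TCDD and 2271 to 4417 CPM in WT TCDD. Of 7 heart muscle markers 5 were positive and 2 negative between the lines with TCDD, with a median of 0.29. The 1 called was actc1a, an actin gene, which averaged 217 ± 50.8 CPM in slincRosu3 TCDD and 545 ± 162 CPM in WT TCDD. It was lower in slincRosu3 (log2 difference -1.33 ± 0.31, edgeR adjusted p = 0.0341), a call lost in 7 of 22 alternatives. Without TCDD 2 of the 7 were called lower in slincRosu3. Of these actc1a had a log2 difference of -2.11 (edgeR adjusted p = 0.00186), a call lost in 0 of 22 alternatives. The other was nkx2.5, a call lost in 5 of 22 alternatives, where its log2 difference ran from -1.04 to -0.85. With TCDD, at an unadjusted p under 0.05, 3 of the 7 were higher and 2 lower (2999 of all 20907 genes). The summed level of the 7, most of it from actc1a, was 256 to 378 CPM in slincRosu3 TCDD and 471 to 813 CPM in WT TCDD. The part of heart muscle in the values of the 10 genes was not tested.

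The synthase genes had opposite signs between the lines under TCDD. The alas1 level averaged 80.1 ± 2.63 CPM in slincRosu3 TCDD and 98.6 ± 16.96 CPM in WT TCDD, a log2 difference of -0.30 ± 0.13 (unadjusted p = 0.0357, edgeR adjusted p = 0.305). It was the only one of the 10 genes whose groups did not overlap, in a comparison where 10.3% of all genes did not. Both libraries of WT TCDD with the highest alas1 stand apart, and without the 4 such libraries the difference was -0.09 (adjusted p = 0.612). The alas2 level averaged 136 ± 40.1 CPM in slincRosu3 TCDD and 97.2 ± 25.5 CPM in WT TCDD, a log2 difference of 0.49 ± 0.22 (adjusted p = 0.325), and the alas2 difference was 0.31 without slincRosu3 TCDD replicate 1. The log2 ratio of alas2 to alas1 differed by 0.76 between slincRosu3 TCDD and WT TCDD (exact permutation p = 0.0857, adjusted 0.381), and by 0.67 without the 4 libraries that stand apart. Between slincRosu3 control and WT control it differed by 0.29 (exact permutation p = 0.171, adjusted 0.381).

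Among the other genes, ppox averaged 4.35 ± 1.12 CPM in slincRosu3 TCDD and 2.82 ± 0.694 CPM in WT TCDD, with the lowest adjusted p of the 10 genes in this comparison (log2 difference 0.62 ± 0.22, adjusted p = 0.188). Without the 4 libraries that stand apart the ppox difference was 0.41, and the epb41b difference was 0.21 in place of 0.54. Without TCDD the level was 3.29 ± 0.684 CPM in slincRosu3 and 3.50 ± 0.343 CPM in WT. In the authors' deposited table, from DESeq2, slincRosu3 TCDD over WT TCDD is listed at 0.63 for ppox with an adjusted p of 0.151, and none of the 10 genes is below 0.05 in any of its 4 comparisons.

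Across all 16 libraries alas2 varied together with the band 3 gene and not with alas1. The permutations moved values freely over the 16 libraries and not within the 4 groups. Their p-values therefore do not separate differences between groups from the spread within them. No p was computed for r after group means were removed. The correlation of log2 CPM between alas2 and slc4a1a was r = 0.853 (permutation p = 5e-05, adjusted 0.0009 over 18 correlation tests) and rho = 0.782 (permutation p = 0.00064, adjusted 0.00576). It was 0.75 without the 2 libraries farthest from the median of alas2 (slincRosu3 TCDD replicate 1 and WT TCDD replicate 1), 0.908 after group means were removed and 0.873 in the 12 libraries that do not stand apart. With uros it was r = 0.707 (permutation p = 0.00256, adjusted 0.0154) and rho = 0.656 (permutation p = 0.00697, adjusted 0.0314). The r with uros was 0.592 without those 2 libraries, 0.847 after group means were removed and 0.777 in the 12 libraries.

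With epb41b it was r = 0.616 (permutation p = 0.0111, adjusted 0.0399) and rho = 0.577 (permutation p = 0.0213, adjusted 0.064). The r with epb41b was 0.487 without those 2 libraries, 0.518 after group means were removed and 0.868 in the 12 libraries that do not stand apart. With alas1 the correlation was r = -0.05 (permutation p = 0.862) and rho = -0.03 (permutation p = 0.908). The r with alas1 was -0.032 without those 2 libraries, 0.252 after group means were removed and -0.005 in the 12 libraries. The adjusted p-values of the other 5 genes, alad, urod, cpox, ppox and fech, were 0.174 or higher. The highest r of these 5 was that of ppox, 0.466 in all 16 libraries and 0.715 in the 12 that do not stand apart. These genes were measured in the same libraries and share their scaling factors.

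**Figure D4:**
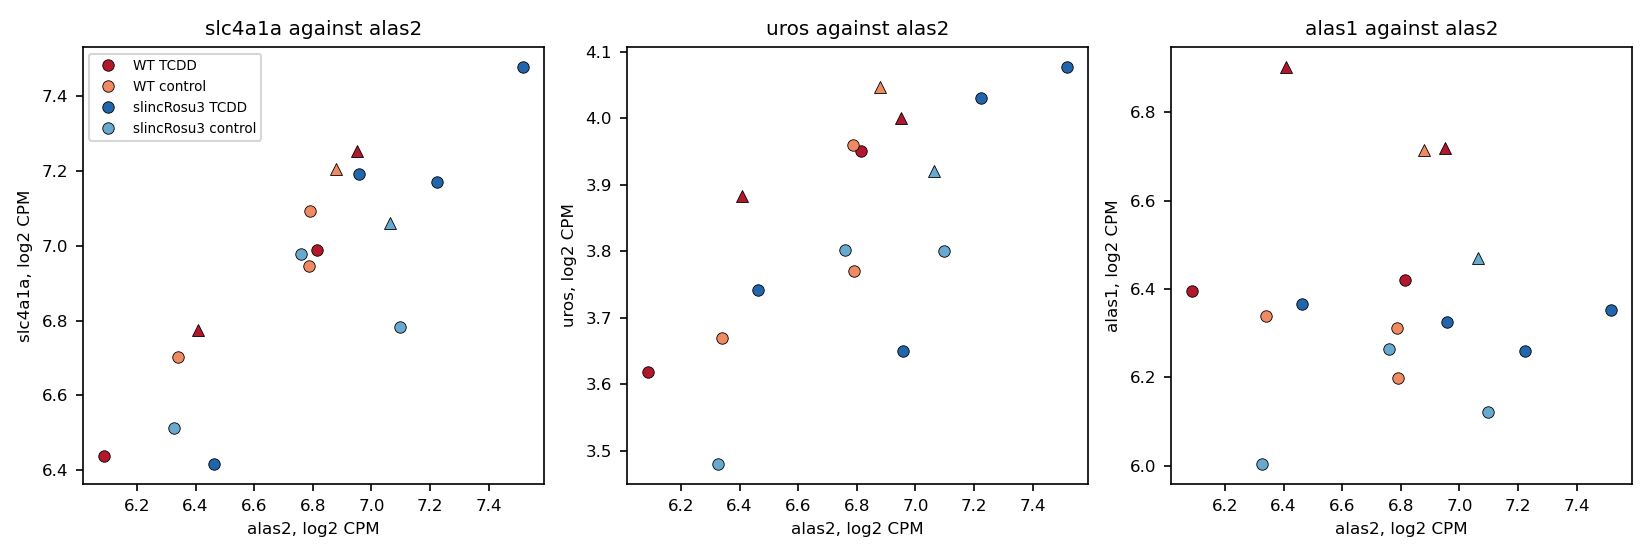
Log2 CPM of slc4a1a (left), uros (middle) and alas1 (right) against log2 CPM of alas2 in 16 libraries, coloured by group; triangles mark the 4 libraries that stand apart. The points rise together for slc4a1a (r = 0.853) and uros (r = 0.707) across the groups, and show no slope for alas1 (r = -0.05).

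The spread of the erythroid genes was larger than counting error. Between the libraries of a group, alas2 had a coefficient of variation of 15.5% to 29.4% where counting gives 2.04% to 2.33%, and slc4a1a 14.6% to 28% where counting gives 2.02% to 2.17%. For alas1 it was 3.28% in slincRosu3 TCDD and 14.2% to 17.2% in the other groups.

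The genes most like each in profile over the 16 libraries were taken from 20217 tested genes with a symbol, as a description. For alas2 they were hemgn (r = 0.937), the gene of an erythroid nuclear protein, zgc:163057 (0.865), znf1105 (0.862), slc4a1a (0.853) and nmt1b (0.84). For slc4a1a they were the embryonic globin gene hbbe1.2 (0.898), the red cell carbonic anhydrase gene cahz (0.859), alas2 (0.853), gp1bb (0.851) and the globin gene hbbe2 (0.821). For alas1 none of the 10 genes was among them, and they were parp14rs3 (0.934), rnf10 (0.929), fam210b (0.928), atp6v1ba (0.927) and stk25b (0.925). The libraries behind these values share scaling factors and include the 4 that stand apart. Those 4 libraries held the highest alas1 levels of all 16, at 88.57 to 119.5 CPM, with the next library at 85.59 CPM. The r values with alas1 thus include that difference between libraries, and were not computed without those 4.

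The summed level of 20 erythroid marker genes overlapped between treated and control embryos in both lines. It was 2271 to 4417 CPM (median 3507) in WT TCDD against 2605 to 4339 CPM (median 3780) in WT control. In slincRosu3 it was 2426 to 4134 CPM (median 3264) with TCDD and 2191 to 3685 CPM (median 3022) in control embryos. The globin gene hbae3 gave the largest part of these sums, at 1041 to 2215 CPM in WT TCDD against 1121 to 1983 CPM in WT control embryos. Marker by marker, 17 of the 19 tested were negative with TCDD in WT, as given above. Of the 19 markers tested, 0 were called by edgeR in either line (0 at an unadjusted p under 0.05 in WT, 1 in slincRosu3), and none of the 20 was at 0 in any library. Over all genes 0.325% were called in WT and 0.383% in slincRosu3. The library with the highest alas2, slincRosu3 TCDD replicate 1, also had the highest marker sum of its group, and WT TCDD replicate 1, with the lowest alas2, had the lowest marker sum of its group. In the other groups, too, the library with the lowest alas2 had the lowest marker sum. These were WT control replicate 1 (2605 CPM), slincRosu3 TCDD replicate 3 (2426 CPM) and slincRosu3 control replicate 2 (2191 CPM). Not all libraries matched in this way. In slincRosu3 control the highest alas2 was in replicate 1, with a marker sum of 2945 CPM against 3685 CPM in replicate 4. WT TCDD replicate 4, with alas2 at 84.8 CPM, had a sum of 3645 CPM, against 3369 CPM in replicate 2 with alas2 at 112 CPM. The part of red cell content in the alas2 and slc4a1a values was not tested.

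Around the pathway, 46 further genes were listed, of which 44 were in the table and 43 tested. They cover the third step of heme synthesis (hmbsa and hmbsb), heme transport and breakdown, iron handling and iron-sulfur clusters. Of these genes hmbsb, tfr1a and slc25a37 are also on the list of erythroid markers. In WT 0 of 43 were called with TCDD (3 higher and 1 lower at an unadjusted p under 0.05), with a median log2 fold change of -0.02 against 0.007 over all genes. Of all 20907 genes 0.325% were called in WT and 0.383% in slincRosu3. At an unadjusted p under 0.05, edgeR counted 1676 of all genes in WT and 1016 in slincRosu3. In slincRosu3 1 of 43 was called, higher, and the median was -0.01 against -0.006. That gene was hmox1a, which encodes heme oxygenase, the enzyme that opens the heme ring.

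The hmox1a level was 32.7, 25.0, 26.2 and 27.9 CPM in WT TCDD against 21.8, 19.4, 16.5 and 22.96 CPM in WT control embryos, and 44.9, 23.9, 31.8 and 27.9 CPM in slincRosu3 TCDD against 11.9, 14.4, 11.3 and 19.7 CPM in slincRosu3 control. The treated libraries were above the control libraries without overlap in both lines, as were 2.03% of all genes in WT and 3.13% in slincRosu3. Averaged over both lines, hmox1a rose 1.76-fold (log2 0.82 ± 0.14, edgeR adjusted p = 0.00366), and the call held in all 21 alternatives. Within the lines the log2 fold change was 1.17 ± 0.19 in slincRosu3 (adjusted p = 0.00667) and 0.47 ± 0.19 in WT, which did not pass (adjusted p = 0.538), and the difference of the 2 effects did not pass either (0.69 ± 0.27, adjusted p = 0.996). The summed level of 9 macrophage and neutrophil markers, cells that also express heme oxygenase, was 49.95 to 61.8 CPM in WT TCDD against 58.95 to 63.2 CPM in WT control embryos, and 61.4 to 66.1 CPM in slincRosu3 TCDD against 66.9 to 75.3 CPM in slincRosu3 control embryos. Of the 9, edgeR called 1 with TCDD in the average, lyz (lysozyme), lower by a log2 fold change of -0.93 ± 0.16 (adjusted p = 0.00651). Of 8 blood vessel markers 1 was called lower in WT, stab2 (-0.54 ± 0.11, adjusted p = 0.0419), and 1 in slincRosu3, plvapb (-0.50 ± 0.09, adjusted p = 0.0159), and both were called lower in the average (adjusted p = 0.00374 for stab2 and 0.00104 for plvapb). Over all genes the called share was 0.325% in WT, 0.383% in slincRosu3 and 0.804% in the average. The stab2 call in WT was lost in 15 of 23 alternatives and the plvapb call in slincRosu3 in 5 of 22, while the calls in the average held in all 21 for lyz, stab2 and plvapb. The part of these cell types in the hmox1a values was not tested.

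The genes of the third step did not pass the test with TCDD. Its enzyme, hydroxymethylbilane synthase, has a pair of genes in zebrafish. For hmbsa the level was 18.7 ± 3.46 CPM in WT TCDD against 19.9 ± 4.06 CPM in WT control embryos, and 17.04 ± 1.91 CPM in slincRosu3 TCDD against 16.6 ± 2.504 CPM in slincRosu3 control. For hmbsb it was 12.2 ± 2.19 CPM in WT TCDD against 15.0 ± 4.09 CPM in WT control embryos, and 18.0 ± 3.27 CPM in slincRosu3 TCDD against 18.2 ± 1.71 CPM in slincRosu3 control. Mitoferrin (slc25a37), which brings iron into the mitochondria of red cells, had 4 to 20 counts per library and was not tested.

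Between the lines the iron uptake gene tfr1b, which encodes a transferrin receptor, was higher in slincRosu3. It averaged 36.2 ± 4.66 CPM in slincRosu3 TCDD against 24.2 ± 0.536 CPM in WT TCDD (log2 0.58 ± 0.13, edgeR adjusted p = 0.0296), and 38.0 ± 7.51 CPM in slincRosu3 control against 23.7 ± 2.97 CPM in WT control (log2 0.68 ± 0.13, adjusted p = 0.0116). The groups did not overlap at either treatment, with slincRosu3 above WT for 5.36% of all genes with TCDD and for 3.11% without. The call was lost in 7 of 22 alternatives with TCDD and in 1 of 22 without, a fit of only the groups compared (adjusted p = 0.103). The metalloreductase gene steap3, which acts in transferrin-bound iron uptake, averaged 4.34 ± 2.09 CPM in slincRosu3 TCDD against 1.63 ± 0.422 CPM in WT TCDD (log2 1.40 ± 0.32, adjusted p = 0.0303), and this call was lost in 8 of 22 alternatives. These were 2 of 43 genes with TCDD, where 1.86% of all genes were called. Without TCDD tfr1b alone was called, 1 of 43, where 1.54% of all genes were. The other transferrin receptor gene of this type, tfr1a, is on the list of erythroid markers and was not called between the lines. It averaged 3.17 ± 1.36 CPM in slincRosu3 TCDD against 2.28 ± 1.47 CPM in WT TCDD. Without TCDD it averaged 5.25 ± 3.40 CPM in slincRosu3 control against 2.89 ± 0.824 CPM in WT control.

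Of 19 tested genes listed for the red cell membrane and its skeleton, beside slc4a1a and epb41b, 0 were called by edgeR in either line (1 higher and 1 lower at an unadjusted p under 0.05 in WT, 2 higher and 1 lower in slincRosu3). Over all genes the called share was 0.325% in WT, 0.383% in slincRosu3 and 0.804% in the average. The list includes tmod4, rhbg, add1 and stom, and in whole embryos the part of red cells in the levels of these genes was not tested. Averaged over both lines 1 was called, the glucose transporter gene slc2a1a, which is also expressed outside red cells. It averaged 2.59 ± 0.328 CPM in WT TCDD against 3.67 ± 0.613 CPM in WT control embryos, and 3.18 ± 0.484 CPM in slincRosu3 TCDD against 6.43 ± 2.06 CPM in slincRosu3 control, and fell by 0.76 on the log2 scale (adjusted p = 0.0292). That call was lost in 11 of 21 alternatives. The ammonium channel gene rhag, a partner of band 3 in the membrane, averaged 169 ± 8.62 CPM in WT TCDD against 139 ± 22.8 CPM in WT control embryos, and 199 ± 6.49 CPM in slincRosu3 TCDD against 156 ± 13.4 CPM in slincRosu3 control, and missed the threshold (log2 0.32 ± 0.07 in the average, adjusted p = 0.0531).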

How the data were processed

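The 10 genes, the lists beside them and the comparisons were chosen with earlier results of these data known. The authors deposited raw counts per Ensembl gene, the sum of 2 read files per sample, per the file headers. One column holds estimated counts as deposited by form, with 1 value not whole, which was rounded. The submitters' processing notes name HISAT2, STAR, DESeq2 and the build GRCz11; the versions, the counting program and the use of strand are not stated there. For WT the deposited read-file counts summed to the main table for all 26347 genes. The read-file counts hold 32520 genes. By its name, the main table had zero counts and a percentile removed before deposit. Shares over all genes are thus shares over genes that remained after that removal. If the 2 files hold the 2 mates of a fragment, each fragment enters about 2 times and counting errors are understated. A table deposited by the authors with their own log2 changes and adjusted p-values is quoted only where named. Not used were 78 columns of per-sample values, 48 of them under a name no label explains.

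Counts were tested with edgeR 4.0.16 (R 4.3.3, limma 3.58.1): TMM scaling, filterByExpr by group, quasi-likelihood F test, two-sided, 4 groups of 16 libraries fitted together with 12 residual degrees of freedom, Benjamini-Hochberg adjustment over 20907 genes, threshold 0.05. CPM are TMM scaled, and log2 CPM used a prior count of 2. The alas2 to alas1 ratio was tested by exact two-sided permutation, and correlations with 100000 permutations (scipy 1.17.1). DESeq2 1.42.0 and the other alternatives are in the closing section. Scripts were tested on simulated data. Named are all 10 genes, listed genes past the threshold with TCDD against control, family 1 P450 genes and the 5 genes most like alas1, alas2 and slc4a1a. Also named, after their values were seen, were hmbsa, hmbsb, slc25a37, rhag, tfr1a, tfr1b, steap3, hbae3, actc1a and nkx2.5.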

Additional observations from a re-analysis of the deposited data

Results flagged for a closer look

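One value stood apart within its group: alad in WT TCDD replicate 2, at 17.1 CPM, lay farther from the other 3 libraries (18.6 to 18.7 CPM) than Dixon's 95% critical value of 0.829 allows, with a gap of 0.917 of the group's range. The 10 genes and the alas2 to alas1 ratio were looked at in 4 groups each, 44 in all, and chance alone gives about 1 such value in 20 groups. The coefficient of variation of this group was 4.11%, against 5.39% from counting alone.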

How the results depend on the processing

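The 6 comparisons were repeated under further settings, 131 repeats in all (other scaling, DESeq2, no filter, only the groups compared, the replicate block, each library left out, the 4 libraries that stand apart left out, and, chosen after the data were seen, 1 read file of the WT libraries), and none of the 10 genes was called where it was tested. In 3 of the repeats 9 of the 10 genes were tested, those of only the groups compared for TCDD in slincRosu3 and between the lines with TCDD, and that of 1 read file. With the replicate number as a block (replicate block) 0 of the 10 were called. The paired exact test of the alas2 to alas1 ratio gave differences of -0.35 in WT (p = 0.125) and 0.12 in slincRosu3 (p = 0.625), where 0.125 is the smallest p that 4 pairs allow. Same-numbered libraries deviated together in some pairings and not in others (r from -0.276 to 0.676). For replicate 2 r was 0.28 to 0.513 in all pairings, and for replicate 1 it was -0.223 to -0.028. Between the 2 control groups r was 0.409 to 0.676 for replicates 2 to 4. Libraries of different number were not compared, so whether the numbers mark a block was not tested. The labels name no block, and the numbers are not taken as pairs.

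Signs changed for small log2 fold changes, none past the threshold. For TCDD in WT, uros was -0.006804 with DESeq2 size factors, -0.003472 with the DESeq2 Wald test, -0.012 with only the groups compared, -0.007122 without the 4 libraries and -0.064 with 1 read file. There alad was 0.063 and cpox 0.041 with 1 read file, and cpox was 0.001751 and epb41b 0.029 without the 4 libraries. Without those 4, cpox was 0.043 and epb41b 0.099 in the average, alad -0.099 and ppox 0.028 between the control groups, and alas1 0.060 and alad 0.059 in the difference of effects.

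Leaving out 1 library at a time, the ratio effect in slincRosu3 ran from -0.032 to 0.32. In WT with TCDD, alas2 ran from -0.25 to 0.030, alad from -0.11 to 0.097, uros from -0.059 to 0.077, cpox from -0.10 to 0.032 and slc4a1a from -0.25 to 0.020. In slincRosu3 with TCDD cpox ran from -0.051 to 0.090. In the average, alas2 ran from -0.018 to 0.15, urod from -0.12 to 0.068, cpox from -0.049 to 0.023, ppox from -0.023 to 0.12, fech from -0.002352 to 0.21 and epb41b from -0.18 to 0.050. Between the lines, uros with TCDD ran from -0.061 to 0.086, and without TCDD alad from -0.074 to 0.14, ppox from -0.18 to 0.043 and epb41b from -0.076 to 0.10. In the difference of effects alad ran from -0.20 to 0.011 and cpox from -0.017 to 0.14.

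The number of all genes called moved by more than 1.5 times. DESeq2 called 143 against edgeR's 68 for TCDD in WT, 154 against 80 in slincRosu3, 266 against 168 in the average, 671 against 389 between the lines with TCDD and 499 against 321 without. Without the 4 libraries the counts were 327, 170, 486, 697 and 604 in that order, and 20 for the difference of effects. With only the groups compared they were 26 for TCDD in WT and 149 between the control groups, and 21 in WT with 1 read file. No fit of only the groups compared exists for the average or the difference. The cause of these shifts was not tested. The 4 replicates a group and the low counts of fech limit what could be called.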
